A study of Mus musculus with 6 samples.

Results

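Adipokines are hormones and other proteins that fat cells release into the blood. The 6 adipokine genes Adipoq, Lep, Retn, Cfd, Rbp4 and Nampt were followed here in fat from NOD mice, which become diabetic through autoimmunity. A gene was represented by the probe set of highest mean signal over the 6 arrays among the probe sets that carry its symbol. By this rule 5 of the 6 genes, with 7 probe sets, could be followed; no probe set carried the symbol of Cfd (adipsin, a complement protease) in the annotation table used, and Cfd is not analysed here. All 5 lay above the filter on low signal, among 13043 genes kept from 45101 probe sets.

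Fat was profiled on 6 Affymetrix mouse arrays, 2 in each of 3 groups. One group had received AAT, the protease inhibitor alpha-1-antitrypsin of serum, and was labelled as stably reverted and independent of insulin. Another group had a blood glucose level above 300 mg/dl on 3 days in a row, called diabetic below, and the last held normoglycemic females of 10 weeks. All groups were NOD mice; age and sex are labelled only for normoglycemic mice, and the labels are silent on the fat depot, the AAT dose and insulin given to diabetic mice. They do not say that both arrays of a group stand for separate mice, so the p-values speak only of the spread between these samples, and that spread may be technical.

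Adiponectin, made from Adipoq, is secreted by adipocytes as multimers and raises insulin sensitivity of liver and muscle through the receptors Adipor1 and Adipor2. Leptin, made from Lep, signals the size of the fat store to the brain; its transcription follows fat cell size and is raised by insulin. Resistin, from Retn, comes from adipocytes in mice and mainly from macrophages in humans. Rbp4 carries retinol in the blood and is made chiefly by liver and also by fat, and Nampt is the rate-limiting enzyme of NAD salvage that is also found outside cells under the name visfatin.

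The deposited values are MAS5 signals, linear intensities scaled to the same trimmed mean on each array. Differences below are of log2(signal + 74.5), the added constant being the 25th percentile over all arrays, so that differences of weak signals are understated, and each is given ± SE from limma with n = 2 arrays a group. The label of fat tissue was checked against 14 adipocyte markers that do not include the adipokines. Probe sets were named for 11 of them and all 11 were kept, with Fabp4, the fatty acid carrier of adipocytes, at 85600 or more on every array. Among 6 brown adipocyte markers, Ucp1, which defines brown fat, was at 124 or less on every array and not kept. The 4 kept were Cox8b at 270 to 1883, Prdm16 at 305 to 811, Dio2 at 236 to 472 and Cidea at 140 to 398. The arrays differed in RNA and hybridisation measures. For beta-actin, 3' signal over 5' signal was 5.87 to 9.08 in AAT-treated, 15.2 to 15.5 in diabetic and 3.63 to 4.30 in normoglycemic fat, and the mean of 18 hybridisation control probe sets reached 128547 on normoglycemic 1 and 86286 on AAT-treated 2, the remaining 4 lying at 25159 to 48494. The beta-actin ratio nearly follows the groups, so differences between groups and in this measure cannot be told apart. In bulk tissue, fewer adipocytes and less adipokine RNA per adipocyte cannot be told apart.

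No adipokine gene passed the adjusted threshold of 0.05 in any of the 3 comparisons. By limma with Benjamini-Hochberg adjustment, 0 of 5 were called for diabetic against normoglycemic, for AAT-treated against diabetic and for AAT-treated against normoglycemic fat, and the background was 0.00% of 13043 genes in each. At an unadjusted limma p under 0.05 there was 1 adipokine, Retn in AAT-treated against diabetic fat, where 4.77% of all genes had such a p. In the other 2 comparisons 0 of 5 had one, against 9.90% of all genes for diabetic minus normoglycemic and 5.13% for AAT-treated minus normoglycemic fat. The plot of signals shows the 2 arrays of a group apart for most adipokines in AAT-treated and diabetic fat, and closer for Adipoq, Retn and Rbp4 in normoglycemic fat. Each pair of the 3 comparisons shares the arrays of a group, so they are not independent of each other. Groups that did not overlap were found for 1 adipokine in diabetic against normoglycemic fat, Retn, which was higher (44.7% of all genes did not overlap, 20.2% with diabetic fat higher). In AAT-treated against diabetic fat it was again 1, Retn, beside 33.8% of all genes.

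**Figure D1:**
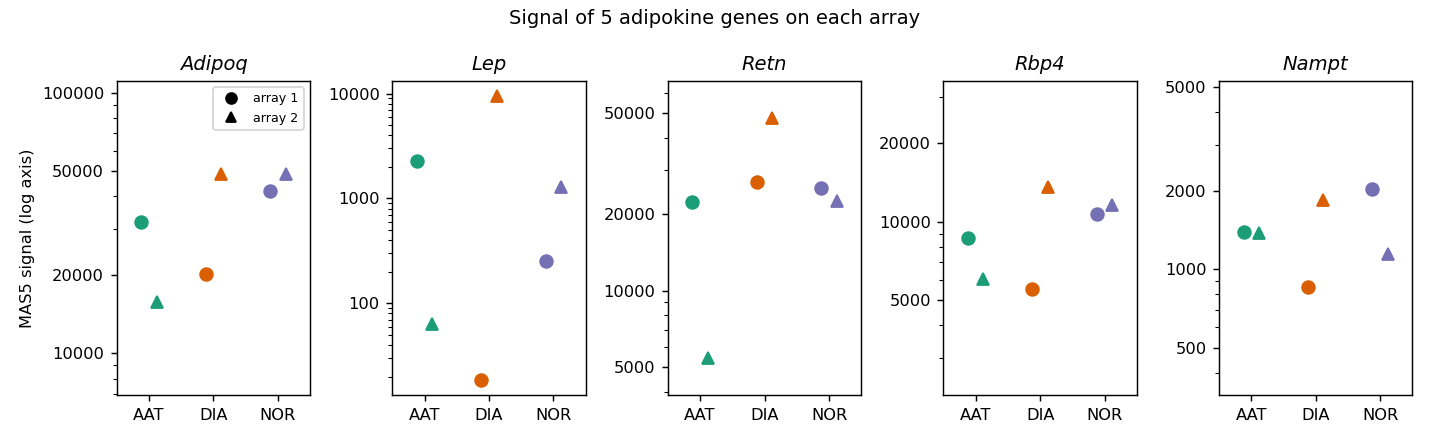
MAS5 signal (log axis) of 5 adipokine genes on each array; circles are array 1 and triangles array 2 of AAT-treated (AAT), diabetic (DIA) and normoglycemic (NOR) fat. Diabetic 2 was the highest array for 4 of the 5 genes, and Lep ran from 18.7 to 9408 within the diabetic group.

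The hormone Lep had the widest spread of the 5. Its signal was 2252 and 63.1 in AAT-treated fat, 18.7 and 9408 in diabetic fat, and 255 and 1299 in normoglycemic fat. The lowest and the highest of the 6 values both came from the diabetic group, so every group overlapped with the others. The signals on diabetic 1 and AAT-treated 2 lay below the 25th percentile of all values and can be read only as low, so no fold is given over them. On the log2(signal + 74.5) scale AAT-treated 1 was 4.08 above AAT-treated 2, diabetic 2 was 6.67 above diabetic 1, and normoglycemic 2 was 2.06 above normoglycemic 1.

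The within-group SD of Lep was 3.30 on the log2 scale, against a median of 0.40 over all 13043 genes. It ranked 2 among them, behind Nnat (neuronatin), with an SD of 3.45. The share of the variance of Lep that lay between groups was 1.67%. The median gene had 42.8%, a share that groups of 2 arrays can give without any group difference. Group differences of Lep were small beside their errors. AAT-treated minus diabetic fat was -0.73 ± 2.0 (95% interval -5.31 to 3.84, adjusted p = 1.0 by limma), AAT-treated minus normoglycemic fat -0.25 ± 2.0 (-4.83 to 4.33, adjusted p = 0.988), and diabetic minus normoglycemic fat 0.48 ± 2.0 (-4.09 to 5.06, adjusted p = 0.943). These intervals hold changes of many fold in either direction, and each of the 3 directions turned when single arrays were left out.

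The 250 bases before the start of Lep are shown because their letters hold a site type tied to adipocyte transcription. The 6 motifs looked for on both strands in the RefSeq promoters (build GRCm38.p6) were the C/EBP forms TTNCNNAA and TTGCGCAA, of which the first includes the second, the E-box CACGTG, the Sp1 box GGGCGG, the TATA box TATAAA and the nuclear receptor hexamer AGGTCA. Capitals mark every match. The Lep window, on the plus strand at chr6:29059971-29060220, held the palindrome TTGCGCAA, starting 55 bases before the gene, and a GGGCGG starting 98 bases before it.
Lep: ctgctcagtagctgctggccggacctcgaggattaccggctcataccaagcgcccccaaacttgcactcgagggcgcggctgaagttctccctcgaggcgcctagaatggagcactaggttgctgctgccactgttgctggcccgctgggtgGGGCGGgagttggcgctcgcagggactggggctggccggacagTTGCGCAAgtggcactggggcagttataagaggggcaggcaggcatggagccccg
Among 32851 promoter windows of this length, 0.164% held the palindrome, 36.8% the wider C/EBP form and 32.7% the Sp1 box. A match in letters is a description and does not show that a factor binds there.

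Adipoq was strongly detected on all arrays. Its signal was 31858 and 15690 in AAT-treated fat, 20191 and 48984 in diabetic fat, and 41908 and 48729 in normoglycemic fat. Both AAT-treated arrays lay below both normoglycemic ones, and the diabetic arrays spanned most of the range. The mean signals were 23774 ± 11433, 34587 ± 20360 and 45319 ± 4823 in AAT-treated, diabetic and normoglycemic fat (SD, n = 2 each). AAT-treated minus normoglycemic fat came to -1.01 ± 0.55 on the log2 scale (95% interval -2.28 to 0.25, adjusted p = 0.923 by limma), AAT-treated minus diabetic fat to -0.49 ± 0.55 (-1.75 to 0.77, adjusted p = 1.0), and diabetic minus normoglycemic fat to -0.52 ± 0.55 (-1.78 to 0.74, adjusted p = 0.744). AAT-treated minus normoglycemic Adipoq was -0.50 without AAT-treated 2 and -1.52 without AAT-treated 1. The other 2 differences turned: without diabetic 2, AAT-treated minus diabetic fat was at 0.15, and without diabetic 1, diabetic minus normoglycemic fat was at 0.12.

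The Adipoq window, on the plus strand at chr16:23146286-23146535, is shown for the contrast with Lep, since its only match was to the wider C/EBP form.
Adipoq: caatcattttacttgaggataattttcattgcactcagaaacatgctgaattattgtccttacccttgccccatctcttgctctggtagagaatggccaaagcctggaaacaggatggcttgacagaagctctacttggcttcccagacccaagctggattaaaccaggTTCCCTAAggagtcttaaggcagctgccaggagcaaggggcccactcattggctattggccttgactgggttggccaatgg
The match started 81 bases before the gene start. None of the other 5 motifs was found in this window. Of the windows not shown, both of Rbp4 held the wider C/EBP form, and 1 of them also 2 Sp1 boxes and a TATA box. The Nampt window held 5 Sp1 boxes and an AGGTCA, and that of Cfd held none of the motifs.

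Retn was the adipokine with the lowest unadjusted p. Its signal was 22319 and 5450 in AAT-treated fat and 26824 and 47888 in diabetic fat, against 25458 and 22618 in normoglycemic fat. The 3 groups did not overlap: both AAT-treated arrays were below the 2 normoglycemic ones and these below the diabetic ones, but AAT-treated 1 and normoglycemic 2 were close, at 22319 and 22618. AAT-treated minus diabetic fat was -1.69 ± 0.64 (95% interval -3.16 to -0.22), with an unadjusted p = 0.0291 and an adjusted p = 0.961 by limma. In this comparison 1.83% of all genes were lower at such an unadjusted p, and the groups did not overlap, with AAT-treated fat lower, for 15.9% of all genes. AAT-treated minus normoglycemic fat was -1.11 ± 0.64 (-2.59 to 0.36, adjusted p = 0.923), and diabetic minus normoglycemic fat 0.58 ± 0.64 (-0.89 to 2.05, adjusted p = 0.759).

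The size of the Retn difference depended on single arrays. Its sign turned in AAT-treated minus diabetic fat only with the beta-actin ratio as a covariate, to 1.24. That ratio nearly follows the groups, at 15.2 and 15.5 on the diabetic arrays. AAT-treated minus diabetic fat was -0.68 without AAT-treated 2 (unadjusted p = 0.225 by limma) and -2.70 without AAT-treated 1 (unadjusted p = 0.000739); without diabetic 2 it was -1.27 (unadjusted p = 0.155). With an array left out its group is a lone sample, which these p-values assume to vary like the other groups. AAT-treated minus normoglycemic fat was -0.10 without AAT-treated 2. Markers of other cells also differed between AAT-treated and diabetic fat, in both directions. The summed signal of 6 smooth muscle markers was 53460 to 81932 in AAT-treated and 9476 to 13683 in diabetic fat, with 6 of 6 higher, and that of 11 macrophage markers was 10804 to 18667 in AAT-treated and 18981 to 31454 in diabetic fat, with 7 of the 10 kept lower and Itgam at 72.3 or less on every array. Of 11 adipocyte markers 7 were lower in AAT-treated than in diabetic fat, with a median of -0.43. Summed markers of B cells, mesothelium, preadipocytes and fibroblasts, and red cells and platelets were also higher in AAT-treated fat without overlap. Those of the marker lists not named here overlapped. The part of these cells in the Retn difference was not tested.

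The Retn window, on the plus strand at chr8:3655520-3655769, is shown because it held none of the 6 motifs.
Retn: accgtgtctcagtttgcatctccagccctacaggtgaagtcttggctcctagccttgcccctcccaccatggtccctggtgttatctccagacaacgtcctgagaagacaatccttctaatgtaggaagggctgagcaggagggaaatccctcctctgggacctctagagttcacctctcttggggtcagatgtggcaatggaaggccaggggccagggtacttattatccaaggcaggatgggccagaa
The absence of these letters from 250 bases says nothing of factors bound elsewhere or through other sequences.

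Rbp4, the retinol carrier, had signals of 8695 and 6028 in AAT-treated fat, 5498 and 13641 in diabetic fat, and 10676 and 11564 in normoglycemic fat. Both AAT-treated arrays were below both normoglycemic ones, and the diabetic arrays held the lowest and the highest value. AAT-treated minus normoglycemic fat was -0.61 ± 0.47 (95% interval -1.69 to 0.46, adjusted p = 0.923 by limma). AAT-treated minus diabetic fat was -0.26 ± 0.47 (-1.33 to 0.82, adjusted p = 1.0) and diabetic minus normoglycemic fat -0.36 ± 0.47 (-1.43 to 0.72, adjusted p = 0.793). Without diabetic 1 the last was at 0.29, and without diabetic 2 AAT-treated minus diabetic fat was at 0.39. Adipoq, Retn and Rbp4 were the 3 of 5 adipokines whose AAT-treated and normoglycemic arrays did not overlap, each lower in AAT-treated fat; over all genes 16.1% were lower in this way, and 32.1% did not overlap in either direction. Between the same groups 11 of 11 adipocyte markers were lower in AAT-treated fat (median -0.55), 6 of 6 smooth muscle markers higher (median 2.30) and 8 of 10 macrophage markers higher (median 0.96). The part of these cells in the 3 adipokine differences was not tested.

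Liver, the main source of circulating Rbp4, was looked for through 6 marker genes, 5 of them with named probe sets. Their summed signal was 792 and 3497 in AAT-treated, 1291 and 3542 in diabetic and 1398 and 1344 in normoglycemic fat. The carrier partner of Rbp4, transthyretin (Ttr), had signals of 31.7 and 2591 in AAT-treated fat, 184 and 2521 in diabetic fat, and 28.9 and 134 in normoglycemic fat. The liver sum and Ttr were high on AAT-treated 2 and diabetic 2, and Rbp4 was high on diabetic 2 and low on AAT-treated 2. The part of liver RNA in the Rbp4 signal was not tested. The 3 kept liver markers were Alb at 448 to 1696, Apoa2 at 120 to 1023 and Apoa1 at 15.4 to 942. Fgb, at 55.5 or less on every array, and Ahsg, at 137 or less, were not kept.

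Nampt was measured by 3 probe sets, of which 2 passed the filter. The one of highest signal, which stands for the gene, had 1391 and 1381 in AAT-treated fat, 856 and 1845 in diabetic fat, and 2026 and 1144 in normoglycemic fat. The AAT-treated arrays were nearly equal and lay inside the range of both other groups. AAT-treated minus diabetic fat was 0.13 ± 0.43 (95% interval -0.86 to 1.12, adjusted p = 1.0 by limma), AAT-treated minus normoglycemic fat -0.13 ± 0.43 (-1.12 to 0.86, adjusted p = 0.971) and diabetic minus normoglycemic fat -0.26 ± 0.43 (-1.25 to 0.73, adjusted p = 0.838). The other kept probe set had the same signs, at 0.20, -0.18 and -0.38. The dim one, at 25.3 to 283, also had them. Nampt had the smallest within-group SD of the 5 genes, 0.53, and that of AAT-treated fat was 0.0064.

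**Figure D2:**
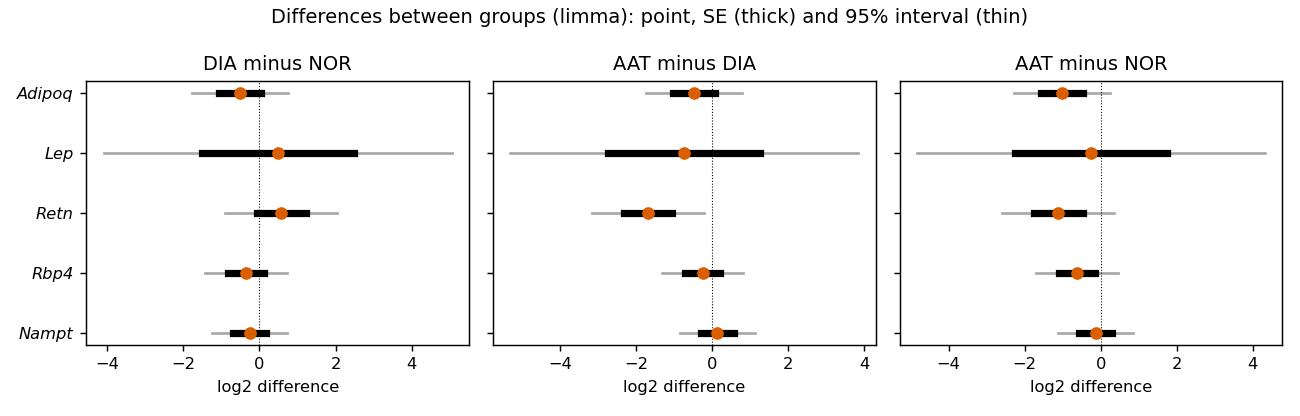
Log2 differences of the 5 adipokines in the 3 comparisons (DIA, diabetic; NOR, normoglycemic; AAT, AAT-treated), with SE as thick and 95% interval as thin lines from limma. Of the 15 intervals, only that of Retn in AAT-treated minus diabetic fat (-3.16 to -0.22) left out 0.

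The 5 genes shared their direction within the diabetic group. Diabetic 2 was above diabetic 1 for 5 of 5, by 2.48 times for Rbp4, 2.43 times for Adipoq, 2.15 times for Nampt, 1.79 times for Retn and, for Lep with its low signal on diabetic 1, by 6.67 on the log2(signal + 74.5) scale. Over all 13043 genes 48.4% were higher on diabetic 2, and 5.39% by at least 1 log2 unit, which 4 of the 5 adipokines reached. The direction was not particular to adipokines: all of the 11 adipocyte markers but Aqp7 were also higher on diabetic 2 than on diabetic 1. Plin4 had 10140 on diabetic 1 and 28320 on diabetic 2, Lpl 61149 and 100873, and Aqp7 4255 and 2326. AAT-treated 1 was above AAT-treated 2 by 4.10 times for Retn, 2.03 times for Adipoq and 1.44 times for Rbp4, and by 4.08 on the log2(signal + 74.5) scale for Lep. For Nampt the ratio was 1.01. Of all genes 42.9% were higher on AAT-treated 1, and 7.86% by at least 1 log2 unit, which Lep, Retn and Adipoq reached. The normoglycemic arrays differed less: normoglycemic 2 over normoglycemic 1 was 1.16 for Adipoq, 1.08 for Rbp4 and 0.888 for Retn, while Lep stood at 5.09 and Nampt at 0.565. Of all genes 45.6% were higher on normoglycemic 2, and 9.45% by at least 1 log2 unit, which Lep reached. The pairs of arrays were set side by side after the values were seen, and a group of 2 gives no test of such a split.

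**Figure D3:**
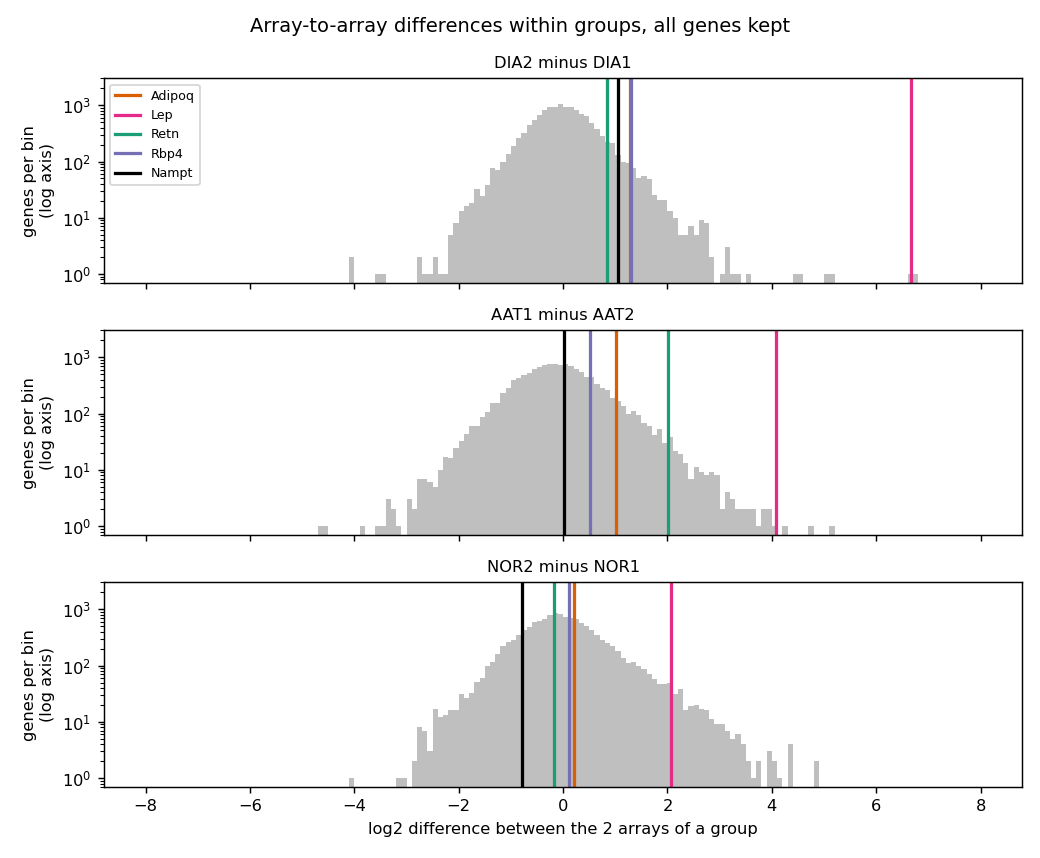
Histograms of the log2 difference between the 2 arrays of a group over 13043 genes (log axis), with the adipokines as vertical lines; in the diabetic panel Adipoq (1.28) lies under Rbp4 (1.30). All 5 lines are right of 0 in the diabetic panel, with Lep at 6.67.

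Adipoq and Rbp4 followed each other over the 6 arrays, with a Pearson r of 0.958 on the log2 scale and 0.933 without the 2 arrays farthest from the median of Adipoq. The r of Adipoq with Lep was 0.764 and fell to 0.177 without such arrays, and that with Retn was 0.741 and 0.519. Over all 6 arrays Retn and Nampt were the least alike, at 0.164, and stood at -0.170 without such arrays. Without the 2 arrays farthest from the median of Retn, the lowest pair was Retn and Rbp4, at -0.623 against 0.617 over all 6. The 6 points share their arrays, their scaling and 3 groups, so these values only describe the arrays.

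Set against the mean of the 11 adipocyte markers on the same array, the spread of most adipokines narrowed. That mean was 13.97 and 13.21 in AAT-treated, 13.89 and 14.46 in diabetic and 13.96 and 14.33 in normoglycemic fat on the log2 scale. By this mean AAT-treated 2 was the lowest and diabetic 2 the highest array. The summed signal of the markers ranked the arrays differently. It was 333740 and 548982 in AAT-treated, 333793 and 507461 in diabetic and 808958 and 515351 in normoglycemic fat. Single markers disagreed: Fabp4 was 85600 and 229987 in AAT-treated fat, where Aqp7 was 5969 and 100. After subtraction of the log2 mean the range over the arrays was 0.98 for Adipoq, against 1.64 before. It was 0.88 for Rbp4, against 1.30, and 1.87 for Retn, against 3.12. Lep kept a range of 6.10, against 6.67, and Nampt had 1.37, against 1.17. With every array centred on these markers, an alternative chosen after seeing the data that raised the median of all genes to 0.60 in AAT-treated minus diabetic and 0.53 in AAT-treated minus normoglycemic fat, Retn in AAT-treated minus diabetic fat was at -1.11 (unadjusted p = 0.0761 by limma).

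The genes most like each adipokine were taken as the 3 of highest Pearson r over the 6 arrays, among genes with an SD at least 0.5 times that of the adipokine. Picking the highest r among many genes over only 6 arrays gives high values, so they describe the arrays and test nothing. For Lep 150 genes qualified, and the nearest were Sod3, the extracellular superoxide dismutase (r = 0.993), the imprinted gene Nnat (r = 0.960) and the secreted glycoprotein Lrg1 (r = 0.936). Sod3 had 889 and 70.1 in AAT-treated fat, 28.2 and 2198 in diabetic fat, and 107 and 642 in normoglycemic fat, the same order of arrays as Lep. Nnat had 11434 and 891 in AAT-treated fat, 171 and 25956 in diabetic fat, and 521 and 7273 in normoglycemic fat, also highest on diabetic 2 and lowest on diabetic 1. The r values were 0.982 for Sod3, 0.915 for Nnat and 0.992 for Lrg1 without the 2 arrays farthest from the median of Lep. A dimmer second probe set of Sod3, under the filter, had an r of -0.19 with Lep.

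**Figure D4:**
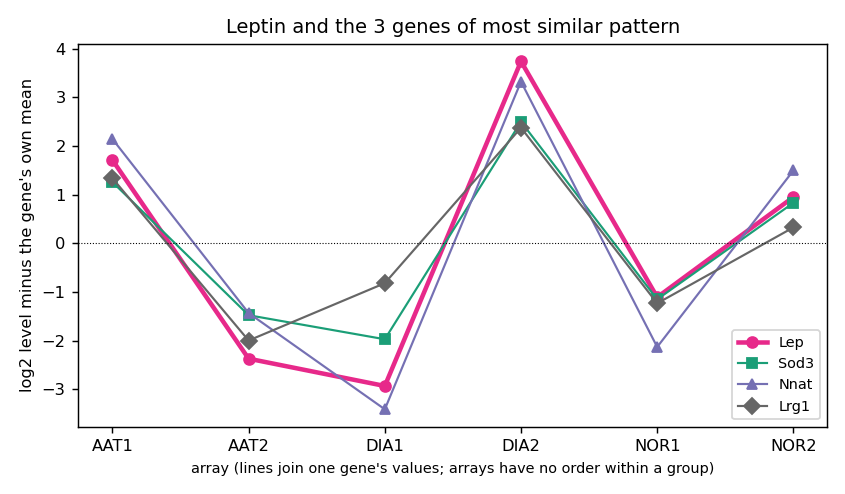
Log2 level of Lep, Sod3, Nnat and Lrg1 on each array, each minus the gene's own mean over the 6 arrays; lines join the values of a gene. All 4 were highest on diabetic 2 (DIA2), and Lep, Sod3 and Nnat were lowest on diabetic 1 (DIA1).

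For the other 4 adipokines more genes qualified. The nearest to Rbp4 were Gnai1, Tbc1d9b and Kcns3 (r = 0.989, 0.986 and 0.986, among 10912 genes) and those to Adipoq were Mcm3, Adamtsl2 and Jag2 (0.985, 0.984 and 0.974, among 8830). Ankdd1b, Nsd2 and Rexo1 came nearest to Retn (0.983, 0.983 and 0.982, among 4733), of which Nsd2 fell to 0.184 without the 2 farthest arrays. B4gat1, St3gal1 and Ddx49 came nearest to Nampt (0.971, 0.971 and 0.967, among 11896). At least 1 other probe set each of Mcm3, Jag2, Nsd2, Rexo1, Tbc1d9b, St3gal1 and Ddx49 had an r below 0 with the same adipokine. For Mcm3, St3gal1 and Ddx49 these lay under the filter. Kept ones were at -0.13 for Jag2, -0.22 for Nsd2, -0.56 for Rexo1 and -0.63 for Tbc1d9b. Further kept probe sets were at 0.75 for Nsd2, 0.67 for Rexo1, 0.43 for Tbc1d9b and 0.70 for Ddx49. These likenesses therefore do not hold for every probe set of a gene.

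Genes that work with the adipokines were followed through 7 lists with 112 genes, of which 86 were kept. By limma 0 of 86 passed the adjusted threshold in any comparison. At an unadjusted p under 0.05 there were 7 (3 higher, 4 lower) in AAT-treated against diabetic fat, 6 (4 higher, 2 lower) in AAT-treated against normoglycemic fat and 7 (3 higher, 4 lower) in diabetic against normoglycemic fat. These are 8.14%, 6.98% and 8.14% of the 86, beside 4.77%, 5.13% and 9.90% of all genes. Split by direction, the share of all genes was 2.94% higher and 1.83% lower, 3.41% higher and 1.72% lower, and 5.27% higher and 4.62% lower in the same order. Groups did not overlap, higher and lower, for 17.9% and 15.9%, 16.0% and 16.1%, and 20.2% and 24.5% of all genes in that order. Values for the genes named below are therefore descriptions of these arrays.

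Of 13 kept receptor and signalling genes of adiponectin and leptin, 10 were higher in AAT-treated than in diabetic fat (median 0.26, all genes 0.01) and 9 higher than in normoglycemic fat (median 0.26, all genes -0.03). The second of these medians was -0.04 without normoglycemic 1 and 0.56 without normoglycemic 2. The leptin receptor Lepr had 1147 and 1395 in AAT-treated fat, 743 and 347 in diabetic fat, and 188 and 717 in normoglycemic fat, with both AAT-treated arrays above all others. Its differences were 1.19 ± 0.55 (adjusted p = 0.961 by limma) from diabetic and 1.56 ± 0.55 (adjusted p = 0.890) from normoglycemic fat, but 1 of the other 2 kept probe sets of Lepr was at -0.55 and -0.30. Socs3, an inhibitor of leptin receptor signalling, differed by 1.12 ± 0.62 between AAT-treated and diabetic fat. The adiponectin receptor Adipor1 had 2623 and 2268 in AAT-treated, 1810 and 2025 in diabetic and 2541 and 3323 in normoglycemic fat, lowest in both diabetic arrays. Another probe set of Adipor1 was at -0.47 for AAT-treated minus diabetic fat, where this one was at 0.34. Adipor2 had 9996 and 3518 in AAT-treated, 8603 and 8249 in diabetic and 6466 and 9868 in normoglycemic fat, with overlap between AAT-treated fat and each other group.

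Chaperones and modifying enzymes that assemble adiponectin numbered 8, all kept. Of the 8, 7 were lower in AAT-treated than in diabetic fat (median -0.34), and in diabetic against normoglycemic fat 6 of 8 were higher (median 0.41, all genes -0.05). Both medians turned with single arrays, the first to 0.10 without AAT-treated 2 and the second to -0.10 without diabetic 2. The chaperone Hspa5 had 6721 and 1531 in AAT-treated, 3607 and 10569 in diabetic and 1637 and 3385 in normoglycemic fat. It was highest on diabetic 2, like all adipokines but Nampt. Gstk1, known as DsbA-L and needed for adiponectin multimers, had 1270 and 978 in AAT-treated, 816 and 1790 in diabetic and 1364 and 1673 in normoglycemic fat; its 6 arrays stood in the same order as those of Rbp4.

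Of the 10 regulators of adipokine genes, Cebpd and Srebf1 had the lowest p in AAT-treated against diabetic fat. Cebpd, a C/EBP factor of early adipocyte differentiation, had 2717 and 2922 in AAT-treated fat and 804 and 934 in diabetic fat, against 2994 and 2088 in normoglycemic fat. AAT-treated minus diabetic Cebpd was 1.62 ± 0.32 (adjusted p = 0.554 by limma) and diabetic minus normoglycemic -1.45 ± 0.32 (adjusted p = 0.459). A second kept probe set of Cebpd had the same signs at 0.44 and -0.22. Srebf1, which drives lipogenic genes and responds to insulin, ran the other way, with 2240 and 1520 in AAT-treated, 5445 and 5290 in diabetic and 2189 and 1889 in normoglycemic fat. Its differences were -1.50 ± 0.32 for AAT-treated minus diabetic fat (adjusted p = 0.600) and 1.37 ± 0.32 for diabetic minus normoglycemic fat (adjusted p = 0.459).

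Pparg, the nuclear receptor that directs Adipoq transcription, had 1996 and 1717 in AAT-treated fat, 927 and 1735 in diabetic fat, and 2151 and 2865 in normoglycemic fat. Diabetic minus normoglycemic Pparg was -0.93 ± 0.37 (adjusted p = 0.495 by limma), and its 2 groups did not overlap. Diabetic fat was lower without overlap for 24.5% of all genes. Cebpa, which acts on the Lep and Adipoq promoters, had 10532 and 6782 in AAT-treated, 9481 and 14611 in diabetic and 8749 and 10162 in normoglycemic fat, with all groups overlapping. Of 10 regulators 3 (2 higher, 1 lower) had an unadjusted limma p under 0.05 in AAT-treated against diabetic fat, beside 4.77% of all genes. In AAT-treated against normoglycemic fat 1 had one, beside 5.13%. In diabetic against normoglycemic fat 3 (1 higher, 2 lower) had one, beside 9.90%. Beside Cebpd and Srebf1, the third in AAT-treated against diabetic fat was Klf15, a glucocorticoid-induced factor, at 0.84 ± 0.34.

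The NAD list around Nampt had 15 kept genes of 17. Nnmt, which methylates nicotinamide and so takes the substrate of Nampt, had 1557 and 1643 in AAT-treated fat and 4311 and 8158 in diabetic fat, against 2220 and 1842 in normoglycemic fat. AAT-treated minus diabetic Nnmt was -1.84 ± 0.37 (adjusted p = 0.600 by limma) and diabetic minus normoglycemic 1.52 ± 0.37 (adjusted p = 0.459), where Nampt itself differed by 0.13 and -0.26. Nt5e, an ectonucleotidase that acts on extracellular nucleotides, had 665 and 683 in AAT-treated, 179 and 427 in diabetic and 213 and 319 in normoglycemic fat, above both other groups on each AAT-treated array. The median of the list was -0.22, -0.27 and -0.03 for AAT-treated minus diabetic, AAT-treated minus normoglycemic and diabetic minus normoglycemic fat; the first was 0.03 and the second -0.12 without AAT-treated 1.

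In the retinol list around Rbp4, 9 of 16 genes were kept and 0 had an unadjusted p under 0.05 in any comparison. Retsat, which saturates retinol, had 1395 and 777 in AAT-treated, 1178 and 2711 in diabetic and 1517 and 1702 in normoglycemic fat, again highest on diabetic 2. The alternative complement list, in which adipsin cleaves factor B, had 9 of 12 genes kept; C3 had no named probe set. Factor B (Cfb) had 675 and 465 in AAT-treated, 342 and 2033 in diabetic and 493 and 450 in normoglycemic fat, and overlapped between all groups. Properdin (Cfp), which stabilises the convertase, had 630 and 418 in AAT-treated, 971 and 693 in diabetic and 426 and 387 in normoglycemic fat, with diabetic minus normoglycemic at 0.90 ± 0.35 (adjusted p = 0.490 by limma). For AAT-treated minus diabetic fat its other kept probe set had the opposite sign, 0.82 against -0.61.

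Among 36 other secreted factors of fat 22 were kept, of which 15 were lower in AAT-treated than in diabetic fat (median -0.24) and 16 were higher in diabetic than in normoglycemic fat (median 0.22). The first median was -0.71 without AAT-treated 1 and -0.07 without AAT-treated 2. The second was 0.04 with no filter on dim probe sets, 0.04 without normoglycemic 1 and 0.64 without normoglycemic 2. Angiotensinogen (Agt) had 1034 and 172 in AAT-treated, 2035 and 2150 in diabetic and 1367 and 997 in normoglycemic fat, and AAT-treated minus diabetic Agt was -2.05 ± 0.61 (adjusted p = 0.961 by limma). Haptoglobin (Hp) had 6265 and 791 in AAT-treated, 4675 and 32971 in diabetic and 3331 and 3903 in normoglycemic fat, far apart on the arrays of AAT-treated and of diabetic fat. Nrg4, a growth factor released by fat, had 683 and 1271 in AAT-treated, 1036 and 1033 in diabetic and 1881 and 2085 in normoglycemic fat, highest in both normoglycemic arrays. The resistin-like gene Retnla, a product of macrophages as well, had 2261 and 2716 in AAT-treated, 2983 and 7796 in diabetic and 2763 and 2001 in normoglycemic fat.

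**Figure D5:**
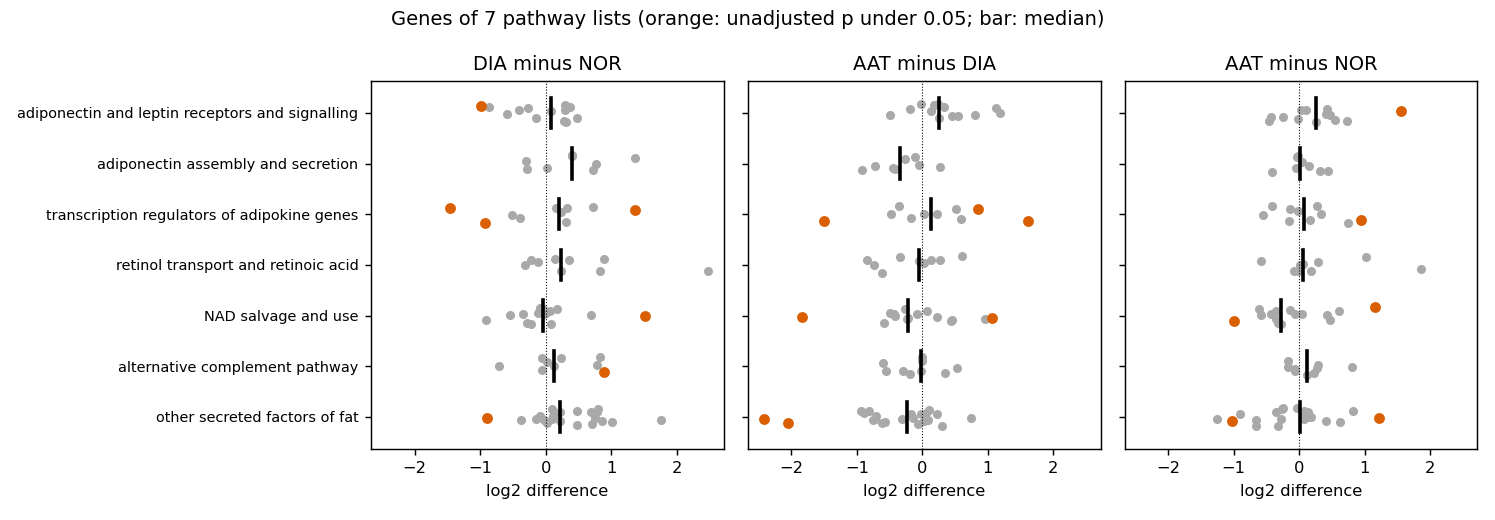
Log2 differences of the 86 kept genes of 7 lists in the 3 comparisons (DIA, diabetic; NOR, normoglycemic; AAT, AAT-treated); each point is a gene, orange marks an unadjusted limma p under 0.05, and the bar is the median of the list. The medians lay between -0.34 and 0.41.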

How the data were processed

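Trizol was used for RNA extraction and single-cycle labelling for biotin targets, per the labels' protocols. The deposited values are MAS5 signal intensities, per the submitters' processing notes; the version is not given in the sources used here. Genes were named from the platform's annotation and the RefSeq table (34945 probe sets with 1 symbol, 932 with several, 9160 with none). Probe sets with a mean signal above 164 (40th percentile) were kept, and the brightest stood for its gene. limma 3.58.1 in R 4.3.3 fitted a mean per group to the 6 arrays (trended eBayes, 2-sided, 3 residual and 5.36 prior degrees of freedom), with adjustment over all genes; the step was tested on simulated data. An exact permutation test of 2 against 2 cannot go below p = 0.333 and was not run. Named were all adipokines, up to 3 genes of smallest p per list and comparison and a fixed set of receptors and regulators, some of which are given here. The adipokines and lists were chosen with earlier results of these data known. Alternatives covered the pseudocount, filter, normalization, probe set, variance model, samples, replicate block, covariates and each array left out. The number of arrays limits precision.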

Additional observations from a re-analysis of the deposited data

How the results depend on the processing

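Differences are log2 in the order AAT-treated minus diabetic, AAT-treated minus normoglycemic, and diabetic minus normoglycemic fat unless named. Of 325 adipokine differences under alternatives, 283 kept their direction and 42 turned, and 0 adipokines passed the adjusted threshold under any of them. Leaving out each array in turn gave -1.13 to 0.15, -1.52 to -0.50 and -1.16 to 0.12 for Adipoq, -4.07 to 2.60, -2.29 to 1.79 and -2.85 to 3.82 for Lep, -2.70 to -0.68, -2.12 to -0.10 and 0.16 to 0.99 for Retn, -0.91 to 0.39, -0.87 to -0.35 and -1.01 to 0.29 for Rbp4, and -0.39 to 0.65, -0.52 to 0.26 and -0.78 to 0.26 for Nampt. With single arrays left out, the number of genes called over the table was 0 to 3 for AAT-treated against normoglycemic fat, 3 being without normoglycemic 2. Of 455 list medians under alternatives, 56 moved. Lep was at -0.018 for diabetic minus normoglycemic with a smaller pseudocount (18.6) and at 0.030 for AAT-treated minus normoglycemic with a larger one (298), and median centring put Nampt at 0.0087 there. Without a filter 1 gene was called for AAT-treated against diabetic fat. With the hybridisation controls as a covariate 1 was called there and 1 for diabetic against normoglycemic fat; diabetic minus normoglycemic was -0.42 for Lep and 0.12 for Nampt, and AAT-treated minus normoglycemic Nampt 0.12. With the beta-actin ratio as a covariate, which nearly follows the groups, AAT-treated minus diabetic was 1.22 for Adipoq, 6.91 for Lep, 1.24 for Retn, 0.67 for Rbp4 and -0.24 for Nampt, AAT-treated minus normoglycemic Nampt 0.17, and diabetic minus normoglycemic -13.51 for Lep, -4.79 for Retn and 0.41 for Nampt. Chosen after seeing the data, centring on adipocyte markers called 68, 97 and 25 genes and put the 7 list medians of AAT-treated minus diabetic fat at 0.25 to 0.84, with AAT-treated minus diabetic at 0.095 for Adipoq and 0.33 for Rbp4 and AAT-treated minus normoglycemic at 0.30 for Lep and 0.42 for Nampt. Leaving out both AAT-treated 2 and normoglycemic 1, also chosen then, gave AAT-treated minus diabetic of 0.018 for Adipoq, 1.31 for Lep and 0.0045 for Rbp4, AAT-treated minus normoglycemic of 0.76 for Lep and 0.27 for Nampt, and diabetic minus normoglycemic of -0.55 for Lep and 0.13 for Nampt. The cause of these changes was not tested. Same-numbered arrays did not deviate together (r = -0.12, -0.51 and 0.08), and the replicate block called 0 genes in each comparison, with Retn for AAT-treated minus diabetic fat at -1.69 (unadjusted p = 0.0420 by limma). Crossed numbers as a block, added after seeing the data, called 81 and 135 genes for AAT-treated against diabetic and against normoglycemic fat. The crossing was chosen from the deviations of these same arrays, which lowers the residual spread, so these counts are no evidence of group differences. With 2 arrays a group, and Lep under the 25th percentile on 2 of 6 arrays, the number of arrays and the dim signals limit what can be told.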

Other observations

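The genes with the widest spread within groups were looked up after the values of Lep were seen. Behind Nnat and Lep came Igha, the heavy chain of immunoglobulin A, with a within-group SD of 2.64 on the log2 scale, then the glycerol channel Aqp7 and, with 2.45, the butyrophilin-like gene Btnl9. Igha had signals of 6726 and 1413 in AAT-treated, 195 and 6190 in diabetic and 1697 and 32.6 in normoglycemic fat. Aqp7, which lets glycerol out of adipocytes, had 5969 and 100.3 in AAT-treated, 4255 and 2326 in diabetic and 708 and 7378 in normoglycemic fat. Unlike Lep, Aqp7 was higher on diabetic 1 than on diabetic 2.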
